A study of Homo sapiens with 6 samples.

Results

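TXNIP, the gene of thioredoxin-interacting protein, was followed in A549, a human cell line set up from a lung adenocarcinoma and kept here in 2D culture for 7 days. It is 1 of 14884 genes named by the platform annotation and is carried by 2 probe sets. It was chosen by its values on these arrays, lower with LA717 and without overlap of the groups on 1 of its probe sets, so those values are given as a description with no test. In the LA717 group, DMEM with fetal bovine serum was supplemented with the low-molecular-weight agar polymer LA717 at 0.03% (w/v), and in the control group Milli-Q water took its place, with 3 arrays per group. All 6 cultures stood on attachment plates according to the titles and the treatment protocol, although another label of the LA717 arrays names low-attachment plates. The labels do not say that the 3 collections of a group were separate cultures, while a legend of the study for its 2D and 3D arrays speaks of independent experiments without naming these samples. The p-values measure the spread between these samples. The glucose content of the medium is not given in the sources used here.

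TXNIP is an alpha-arrestin. It binds thioredoxin, the small protein that keeps cysteines of other proteins reduced, and it draws glucose transporters from the cell surface, so that it lowers glucose uptake. Its transcription is known to follow the level of glucose phosphates in the cell, through the MondoA (MLXIP) and ChREBP (MLXIPL) transcription factors with their partner MLX, which bind a carbohydrate response element in its promoter. The mRNA is short-lived and is known to be high in resting cells and low in dividing ones.

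The promoter that these factors act on is shown with that of ARRDC4, the alpha-arrestin gene that shares this control in human cells. ARRDC4 lay lower on every LA717 array than on any control array, as did 6.65% of all genes other than TXNIP. TXNIP was chosen for such values, which it had on the brighter of its probe sets. RefSeq (GRCh38.p14) holds 2 start sites for TXNIP. The 250 bases before the upstream one lie at chr1:145996580-145996829 on the minus strand, and those before the start of ARRDC4 at chr15:97960453-97960702 on the plus strand. Capitals mark matches, on either strand, to the motifs named below.
TXNIP: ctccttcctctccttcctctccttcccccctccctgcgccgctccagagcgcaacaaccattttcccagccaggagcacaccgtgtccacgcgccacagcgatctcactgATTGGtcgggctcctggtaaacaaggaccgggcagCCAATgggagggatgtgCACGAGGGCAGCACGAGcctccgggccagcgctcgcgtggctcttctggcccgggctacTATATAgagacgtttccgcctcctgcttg
ARRDC4: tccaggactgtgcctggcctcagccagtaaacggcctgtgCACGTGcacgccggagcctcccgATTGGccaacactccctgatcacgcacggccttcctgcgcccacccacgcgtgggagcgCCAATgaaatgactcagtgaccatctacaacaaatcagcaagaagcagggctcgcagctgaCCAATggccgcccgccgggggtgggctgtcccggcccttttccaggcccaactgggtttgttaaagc

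In TXNIP the bases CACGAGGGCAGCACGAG, from 88 to 72 bases before the start, are a match to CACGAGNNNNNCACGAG, the paired E-box-like elements of a carbohydrate response element. This motif was found in 2 of 35116 windows of the same length before RefSeq starts (0.0057%). All its fixed letters are those of the TXNIP element itself, so the match in TXNIP is no test. The low share holds for these exact letters only and does not show how rare carbohydrate response elements are. CCAAT boxes, letters that NF-Y binds, stood 105 to 101 bases before the start and, on the opposite strand, 140 to 136 bases before it, and 32.0% of all windows held at least 1. The letters TATATA lay 29 to 24 bases before the start (3.73% of windows). The ARRDC4 window held no match to the paired elements in these exact letters, and other forms of them were not searched. It held the E-box CACGTG 210 to 205 bases before the start (6.34% of windows) and 3 CCAAT boxes. No match overlapped another. These matches describe the letters in the windows and are not measured sites.

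Log2 intensities of 53617 probe sets were read per array, and the arrays had medians from 3.19 to 3.23 and correlated in pairs with r from 0.9899 to 0.9913 across probe sets. In the limma fit 0 of 53617 probe sets passed an adjusted p of 0.05 (0%), with 2845 at an unadjusted p under 0.05. The values hold no measure of signal over background and 6 arrays limit their precision. Of the epithelial markers, 5 of 14 were measured (KRT7, KRT8, KRT18, KRT19 and EPCAM), and their mean log2 intensity ran from 7.24 to 7.36 on the LA717 arrays and from 7.27 to 7.46 on the control arrays. Of 10 leukocyte markers 4 were measured, with a mean of 5.69 to 5.91 with LA717 and 5.87 to 6.02 in control. Highest among them were CD68 and CD14, at 8.70 and 7.77 with LA717. For 3 measured of 8 fibroblast markers the mean was 4.08 to 4.38 with LA717 and 4.20 to 4.47 in control. For 4 measured of 6 endothelial markers it was 3.34 to 3.46 with LA717 and 3.44 to 3.49 in control. Among these LYZ, which lung epithelium also makes, differed by −0.34 (log2) and LUM by −0.38. LYZ was weak (mean 3.25 with LA717, 3.59 in control). Only CD68 (0.02) and THY1 (0.11) had positive differences, and the part of these markers in the result was not tested.

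On its brighter probe set TXNIP had log2 intensities of 6.10, 5.95 and 5.69 in LA717 replicates 1, 2 and 3, against 6.61, 6.67 and 6.25 in control replicates 1, 2 and 3. Every LA717 array lay below every control array. LA717 replicate 3 was the lowest of all, and control replicate 3 was the lowest of its group. The means were 5.91 ± 0.21 with LA717 and 6.51 ± 0.23 in control (SD, n = 3 each), a difference of −0.60 (LA717 minus control, log2, SE 0.15), or 66.2% of the control intensity. The 95% interval of the limma fit ran from −0.95 to −0.24, given as a measure of spread and not as a test. The gap between the highest LA717 array and the lowest control array was 0.15, smaller than the range within LA717 (0.41) or within control (0.42). Arrays of whole cultures cannot tell fewer cells with TXNIP mRNA from less of it per cell.

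The dimmer TXNIP probe set, at a mean of 2.35 over the 6 arrays, lay under the median of all probe sets (3.19). It gave 2.40, 1.84 and 1.96 in LA717 replicates 1, 2 and 3, against 3.09, 2.22 and 2.61 in control replicates 1, 2 and 3. Here the groups overlapped, since LA717 replicate 1 lay above control replicate 2, and the LA717 array was the lower in 8 of the 9 pairs of arrays. The difference was −0.57 (SE 0.24), close in size to that of the brighter probe set. Which stretch of the transcript each probe set reads is not given in the sources used here. As both probe sets read the same RNA samples, they are not replicates of the culture.

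**Figure D1:**
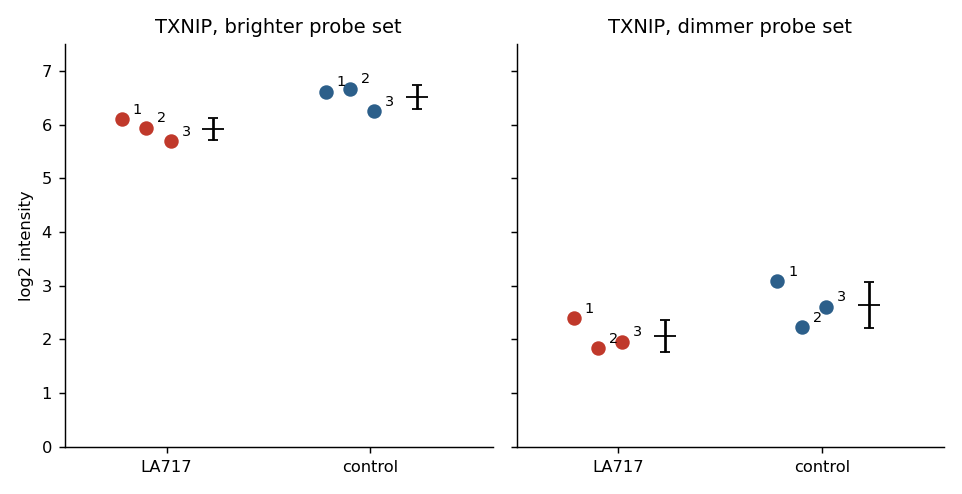
Log2 intensity of TXNIP on each array (points, numbered by replicate) for the brighter probe set, left, and the dimmer one, right, with the mean and SD of each group (n = 3) as a black bar. On the brighter probe set all LA717 arrays lie below all control arrays, and on the dimmer one LA717 replicate 1 (2.40) lies above control replicate 2 (2.22).

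TXNIP was chosen for lower values, and its difference stood near the low end of the measured genes. Among the 10845 genes whose mean was not under the overall probe set median (3.19), TXNIP had the 10th lowest difference. It was 15th by size in either direction, where the median difference was −0.01. That bound is low, as probe sets naming a gene had a median of 4.62. Without overlap of the groups, 788 of them were lower and 532 higher with LA717, and TXNIP held place 6 among those 788. Next to it in the order of these 788 differences, just lower, stood KLHL7-DT, a divergent transcript (−0.61), and the microRNA gene MIR4468 (−0.60), and just higher the xylosyltransferase gene GXYLT2 (−0.59) and the heparan sulfate sulfotransferase gene HS3ST6 (−0.59). KLHL7-DT and MIR4468 were weak, with means of 2.96 and 3.62 with LA717 and 3.57 and 4.21 in control. By its gap between the groups TXNIP came 85th of the 788, whose median gap was 0.046. Its SE was larger than that of 87.3% of the 10845 genes, whose median SE was 0.11.

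The genes that sense glucose for TXNIP differed little. MLXIP, which encodes MondoA, had 6.45, 6.26 and 6.28 in LA717 replicates 1, 2 and 3, against 6.58, 6.57 and 6.28 in the control replicates, and the groups overlapped at control replicate 3. Its difference was −0.15 (95% interval −0.42 to 0.12, limma adjusted p = 0.925). MLX, the shared partner, differed by 0.06 (SE 0.08) and MLXIPL, encoding ChREBP, by 0.11 (SE 0.16). Of the 9 sensor and MAX network genes measured, 5 had a positive and 4 a negative difference, 0 passed the test, 0 had an unadjusted p under 0.05 (4.39% of all genes other than TXNIP), and in 0 the groups did not overlap (6.65% of all on the low side and 4.86% on the high side). Among the rest, MXI1, a MAX partner that represses transcription, had −0.13 on its brighter and 0.16 on its second probe set. The median of the list was 0.03, against −0.01 over all 14883 genes other than TXNIP.

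Of 16 measured targets of these factors, ARRDC4 and KLF10 had the greatest differences in size among those that were not dim (mean over 3.19), and both were lower with LA717. ARRDC4, the closest relative of TXNIP in its control by MondoA, had 4.62, 4.66 and 4.74 in LA717 replicates 1, 2 and 3, against 4.91, 4.92 and 4.93 in control replicates 1, 2 and 3. The control arrays were tightly grouped and all LA717 arrays lay below them, with a gap of 0.17. The difference was −0.24 (SE 0.08, 95% interval −0.44 to −0.05), which did not pass the test (limma adjusted p = 0.92). KLF10, a zinc finger repressor gene, had 8.81, 8.72 and 8.60 with LA717, against 8.95, 8.93 and 8.83 in control, so that the groups were parted by 0.02. Its difference was −0.19 (SE 0.09, limma adjusted p = 0.92).

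The other targets, mostly enzymes and regulators of lipid and fructose metabolism, lay close to 0. They ran from −0.08 for the acetyl-CoA carboxylase gene ACACB to 0.15 for the dim THRSP, with the fatty acid synthase gene FASN at 0.01, ACLY at 0.04 and the ketohexokinase gene KHK at 0.06, and their groups overlapped. The list had 9 negative and 7 positive members and a median of −0.01, the same at 2 decimals as that of all genes. In 2 of 16 the groups did not overlap, both lower with LA717, where 6.65% of all genes other than TXNIP did so, and 0 members were so parted on the high side, where 4.86% of all genes were.

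TXNIP is related in sequence to the ARRDC genes. Of the 5 measured, ARRDC4 was the only one whose groups did not overlap. Over all genes other than TXNIP this held for 6.65% on the low side and 4.86% on the high side. ARRDC2 had a difference of −0.15 (SE 0.10), ARRDC5 of −0.07, ARRDC1 of −0.05 and ARRDC3, which acts as an adaptor for ubiquitin ligases, of 0.04. The visual arrestin gene SAG, also on the list, stood at 0.14, and the beta-arrestin genes were not analysed here. In this list 0 of 6 passed the test, and the median was −0.06.

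**Figure D2:**
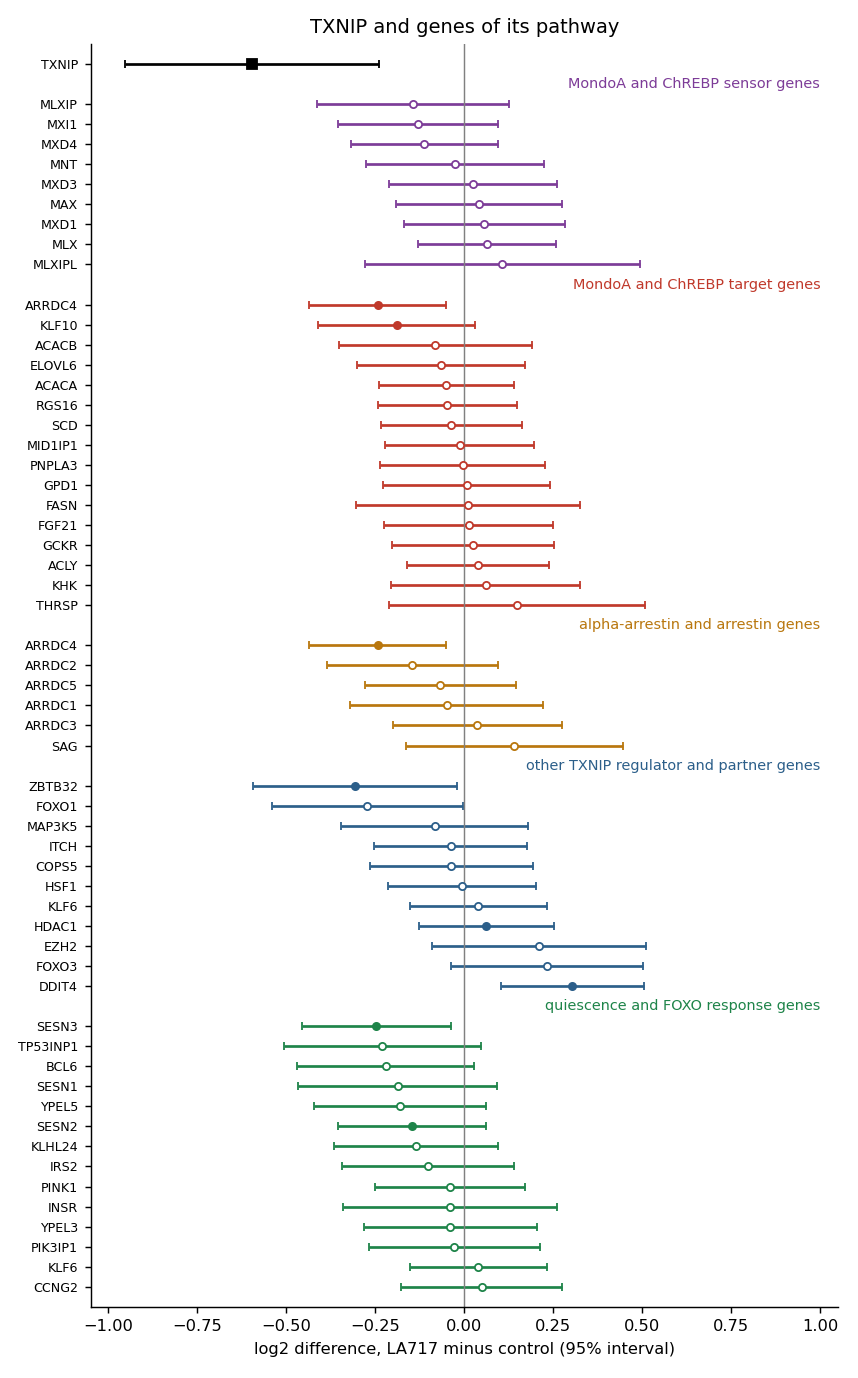
Log2 difference, LA717 minus control, with its 95% limma interval for TXNIP (square, brighter probe set) and for genes of 5 lists (circles, 3 arrays per group). Filled circles are genes whose groups did not overlap, among them ARRDC4 (−0.24), KLF10 (−0.19) and DDIT4 (0.30). TXNIP, chosen for its low values, lies lowest at −0.60.

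Among regulators and partners of TXNIP, members stood on both sides. DDIT4, an inhibitor of mTORC1 whose protein binds TXNIP, had 8.94, 9.10 and 9.04 in LA717 replicates 1, 2 and 3, against 8.75, 8.73 and 8.69 in the control replicates. All its LA717 arrays lay above the control arrays, opposite to TXNIP, with a difference of 0.30 (SE 0.09, limma adjusted p = 0.917). FOXO1, a transcription factor gene, was at −0.27 (SE 0.11) with groups that overlapped, and its relative FOXO3 at 0.23 (SE 0.12). ITCH, the ubiquitin ligase that marks TXNIP protein for degradation, stood at −0.04 (SE 0.09), and EZH2, a histone methyltransferase gene, at 0.21 (SE 0.13). The zinc finger gene ZBTB32 had 3.18, 3.43 and 3.63 with LA717, against 3.71, 3.73 and 3.72 in control, with no overlap and a difference of −0.31 (SE 0.12). Of 11 measured members 0 passed the test, and the median was −0.01. At an unadjusted p under 0.05, which 4.39% of all genes reached in either direction, 1 was higher and 2 lower. The groups did not overlap in 1 on the low side (6.65% of all genes other than TXNIP) and 2 on the high side (4.86%). Those 2 were DDIT4 and HDAC1, whose groups were parted by only 0.002 in HDAC1.

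In the thioredoxin system, which TXNIP acts on, the main genes lay close to 0 and a few others lay farther from it. TXN, the thioredoxin gene, had 11.55, 11.64 and 11.59 in LA717 replicates 1, 2 and 3, against 11.64, 11.62 and 11.64 in the control replicates, and differed by −0.04 (95% interval −0.23 to 0.15). TXNRD1, encoding the reductase that restores thioredoxin, differed by 0.06 (SE 0.08) and the mitochondrial TXN2 by 0.04 (SE 0.09). At the ends of the list stood NXN, encoding nucleoredoxin, and RRM2, a subunit gene of ribonucleotide reductase, which thioredoxin can supply with electrons. NXN had 6.31, 6.24 and 6.29 with LA717, against 6.72, 6.70 and 6.45 in control, with no overlap and a difference of −0.34 (SE 0.10, limma adjusted p = 0.92). RRM2 was at 0.28 (SE 0.16) with groups that overlapped, and PRDX2, a peroxiredoxin gene that uses thioredoxin, at 0.25 (SE 0.10) without overlap. Of 35 measured members 22 were negative and 13 positive, where 7751 of all 14883 genes other than TXNIP were negative. In this list 0 passed the test, and 1 was higher and 1 lower at an unadjusted p under 0.05 (4.39% of all genes in either direction). The groups did not overlap in 2 on the low side (6.65% of all genes) and 1 on the high side (4.86%). The median was −0.04.

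The measured genes of glucose use differed by less than TXNIP, which was itself chosen for its low values. None of the 18 hexose transporter genes on the list, whose proteins TXNIP acts on, was matched to a probe set, and they were not analysed here. Of the 31 glycolysis genes on the list 12 were measured. Among these GPI, the enzyme that converts glucose 6-phosphate, had the greatest difference at 0.15 (SE 0.08). Its groups were parted by 0.04, and the other 11 had groups that overlapped. Of all genes other than TXNIP, 4.86% were so parted on the high side and 6.65% on the low side. HK2 is a hexokinase gene, and hexokinases make the glucose phosphate that MondoA responds to. It had 4.99, 5.05 and 4.67 with LA717, against 4.87, 4.71 and 5.05 in control. The difference of HK2 was 0.03 (95% interval −0.29 to 0.35). HK1 was at −0.06, HKDC1 at −0.02, GAPDH at 0.08, LDHA at 0.09 and TPI1 at −0.12. The 8 measured of 9 listed pentose phosphate genes lay between −0.06 and 0.003, with TKT and RPIA at −0.02 each. Medians were 0.02 for glycolysis and −0.01 for the pentose phosphate genes. In either list 0 members passed the test or had an unadjusted p under 0.05, which 4.39% of all genes other than TXNIP had.

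TXNIP protein also binds the inflammasome sensor NLRP3, which was not analysed here. Of 5 inflammasome genes measured, NEK7, a kinase that activates NLRP3, stood at 0.11 (SE 0.09) and the adaptor gene PYCARD at −0.10 (SE 0.10), with groups that overlapped in all 5. Of 8 measured genes of the glucocorticoid and vitamin D response, which also induces TXNIP, KLF9 alone had groups that did not overlap. Over all genes other than TXNIP 6.65% were so parted on the low side and 4.86% on the high side. KLF9 had 6.34, 6.20 and 6.31 with LA717, against 6.47, 6.54 and 6.55 in control, a difference of −0.24 (SE 0.09). FKBP5, a classical glucocorticoid target, differed by 0.05 (SE 0.09) and PER1 by −0.07 (SE 0.10), while HSD11B2, whose enzyme inactivates cortisol, was at 0.32 (SE 0.14) with groups that overlapped. The medians were 0.01 and −0.02, and 0 members passed the test.

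Of the 14 measured genes of quiescence and of the FOXO response 12 had a negative difference, as had 7751 of all 14883 genes. The median was −0.12, against −0.01 over all genes. In this list 0 passed the test, 1 had an unadjusted p under 0.05 (4.39% of all genes), and in 2 the groups did not overlap, both on the low side (6.65% of all genes). SESN3, a FOXO target that restrains mTORC1, had 4.16, 4.11 and 4.09 in LA717 replicates 1, 2 and 3, against 4.41, 4.26 and 4.44 in the control replicates. Its groups did not overlap, and the difference was −0.25 (SE 0.09, limma adjusted p = 0.92). TP53INP1, a stress-induced autophagy gene, was at −0.23 (SE 0.12), the repressor gene BCL6 at −0.22 (SE 0.11) and SESN2 at −0.15 (SE 0.09), of which SESN2 had groups that did not overlap. The mean log2 intensity of the list was 5.98, 5.99 and 5.90 on the LA717 arrays, against 6.09, 6.08 and 6.02 on the control arrays. The exceptions in sign were CCNG2, a cyclin gene that FOXO factors induce, at 0.05 and KLF6 at 0.04.

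Over the 10 lists with a measured member, 122 genes other than TXNIP were covered. Of these 0 passed the adjusted p. At an unadjusted p under 0.05 there were 8 (6.56%), 2 higher and 6 lower, where 4.39% of all genes other than TXNIP reached it. The groups did not overlap in 8 on the low side (6.56%, against 6.65% of all genes) and in 4 on the high side (3.28%, against 4.86%). The share on the low side was close to that of all genes. The 122 genes had differences from −0.34 to 0.32, each smaller in size than that of TXNIP. As TXNIP was chosen for its low values, this order is no result about the lists.

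**Figure D3:**
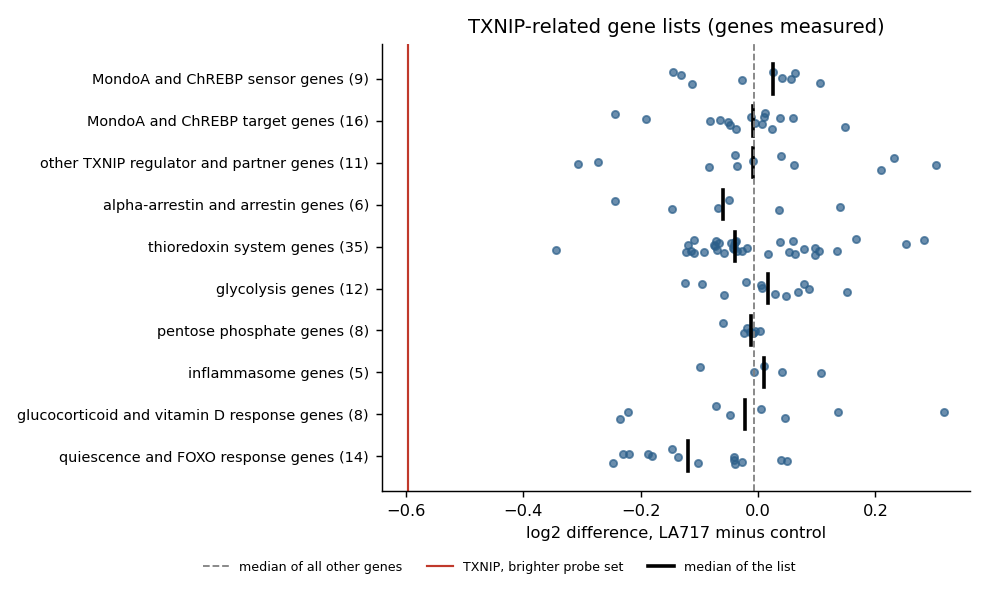
Log2 difference, LA717 minus control, of each measured gene (points) in 10 lists of TXNIP-related genes, with the median of each list as a black bar, the median of all other genes as a dashed line (−0.01) and TXNIP as a red line (−0.60). The list of quiescence and FOXO response genes has the lowest median (−0.12). No point reaches TXNIP, which was chosen for its low values.

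To find genes with a like pattern, the mean of each gene over the 6 arrays was subtracted and the root mean square difference from TXNIP was taken over the arrays. Across the 10844 other genes that were not dim this distance had a median of 0.364 (log2), and 66 genes lay under 0.2. The nearest was KRT20, an intermediate filament gene of intestinal epithelium, at 0.091, with 4.72, 4.70 and 4.28 in LA717 replicates 1, 2 and 3, against 5.25, 5.11 and 4.84 in the control replicates. Next came HSPA2, a heat shock protein gene, at 0.112, RNF43, a ubiquitin ligase that dampens Wnt signalling, at 0.121, HS3ST6 at 0.125 and PARM1, a mucin-like protein gene, at 0.126. The divergent transcript DGAT2-DT (0.133), the calcitonin gene CALCA (0.135) and LINC02035 (0.135), a long non-coding RNA, completed the 8. In 7 of these 8 the groups did not overlap, which likeness to TXNIP makes frequent in itself. DGAT2-DT and CALCA were weak, with means of 3.32 and 3.58 with LA717 and 3.70 and 3.96 in control.

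The brighter TXNIP probe set, on which likeness was measured, was lowest on replicate 3 in each group. As their choice over the same 6 arrays favours, all 8 genes were lowest on LA717 replicate 3, and 7 of them, all but HS3ST6, had control replicate 3 as the lowest control array. The dimmer TXNIP probe set was instead lowest on replicate 2 in each group, and lay 0.317 from the brighter one, farther than any of the 8 genes. Without LA717 replicate 3 only 1 of the 8, KRT20, remained among the nearest, and without control replicate 1 there were 3. With Pearson correlation as the measure 0 of the 8 remained, so that the names depend on the measure. Genes of the lists were farther away, with NXN at place 38 (0.180), KLF10 at place 163 (0.231), MLXIP at 240 (0.244), ARRDC4 at 553 (0.269) and TXN at 3378 (0.336). ARRDC4 was, unlike TXNIP, at its highest LA717 value on replicate 3, and its control arrays hardly differed.

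**Figure D4:**
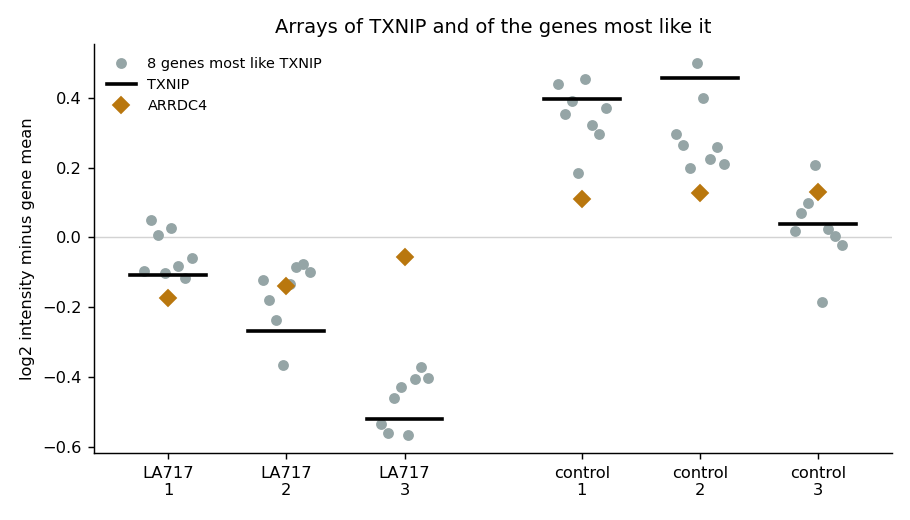
Log2 intensity minus the mean of the gene over 6 arrays, for the brighter TXNIP probe set (black bars), the 8 genes most like it (grey points) and ARRDC4 (diamonds) on each array. TXNIP and the 8 genes are lowest on LA717 replicate 3, where TXNIP stands at −0.52, whereas ARRDC4 stands at −0.06.

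Genes beside TXNIP on chromosome 1 were taken by their place in RefSeq, a comparison added with the data known. Of the 6 protein-coding genes on either side, 6 in all were measured. POLR3GL, the next gene on the lower-numbered side, differed by −0.02 (SE 0.09) and HJV, the next on the other, by −0.23 (SE 0.15), where HJV was dim. ANKRD34A was at −0.25 (SE 0.16), LIX1L at −0.03, RBM8A at −0.06 and NOTCH2NLA at −0.12. All 6 were negative, as were 7751 of all 14883 genes other than TXNIP, and in each of the 6 the groups overlapped. Over all genes other than TXNIP the groups did not overlap in 6.65% on the low side and 4.86% on the high side.

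The TXNIP difference moved little between settings. With each array left out it ran from −0.72 without control replicate 3 to −0.48 without LA717 replicate 3. It was −0.59 after quantile normalization, −0.60 after centring the arrays on their medians and −0.62 with array quality weights. Since the groups of the brighter probe set do not overlap, leaving out an array could not turn its sign.

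**Figure D5:**
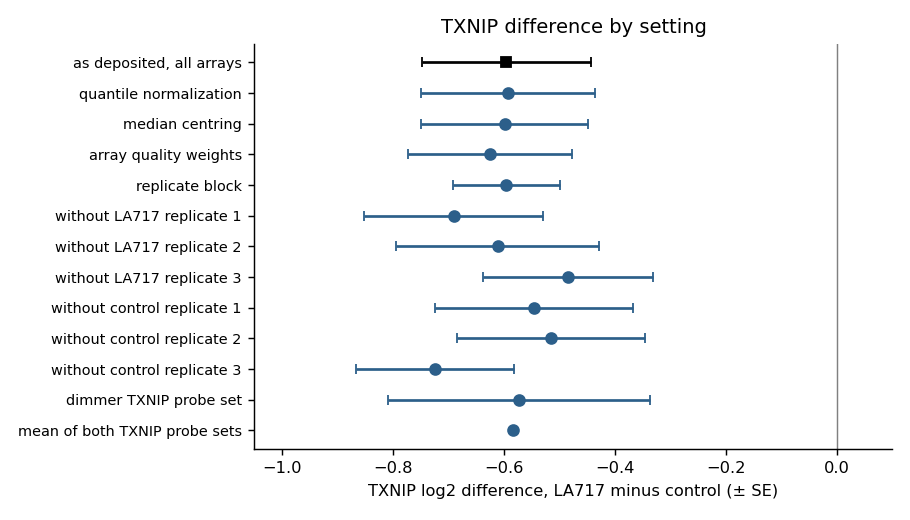
TXNIP log2 difference, LA717 minus control (points, with the limma SE as bars; the mean of both probe sets has none), with all arrays as deposited (square) and under each other setting. The values lie between −0.72 and −0.48.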

How the data were processed

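Total RNA of A549 cells was isolated with RNeasy columns and hybridised on GeneChip Human Gene 2.0 ST arrays. The deposited table holds log2 values per probe set and array, made by the authors with Affymetrix Expression Console. The software version, normalization and genome build were not given in the sources used here, and the labelling kit in the labels is one for another array type. The scale was read from the range of the values, which were used as deposited.

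Groups and replicate numbers came from the titles. Names came from the platform annotation (16098 of 53617 probe sets, 14884 genes), and all matched RefSeq (GRCh38.p14) by Entrez identifier. For genes with several probe sets the brightest one stood for the gene. LA717 minus control was fitted to all probe sets by linear models with moderated variance (limma 3.58.1, R 4.3.3), with two-sided p adjusted by Benjamini-Hochberg at 0.05. This fit was tested on simulated arrays. The study's methods name a fold threshold and no test for the arrays. Plots used matplotlib 3.10.9.

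TXNIP, the lists and the tests were chosen with earlier results of these data known. By rule the text names TXNIP, ARRDC4, MLXIP, MLX, TXN, TXNRD1, HK2 and ITCH, the 2 members of each list with the greatest difference in size among genes not under the overall probe set median, the 8 genes most like TXNIP, and the 2 genes on either side of it in rank among genes without overlap of the groups. Further members, and the neighbours on the chromosome, were added to describe their lists after their values were seen. Alternatives were other normalizations, variance models, a filter on dim probe sets, a replicate block and leaving out each array. Spheroid cultures were not analysed here.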

Additional observations from a re-analysis of the deposited data

How the results depend on the processing

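The count of probe sets past the adjusted p was 0 in limma under all 12 alternatives, with 2605 to 3014 at an unadjusted p under 0.05 when an array was left out, and 0 members of the TXNIP-related lists passed in any. The TXNIP difference was −0.59 to −0.62 under the other normalizations and weights, −0.48 to −0.72 on leaving out single arrays, −0.57 on the dimmer probe set and −0.58 as the mean of both. The replicate numbers are not stated to pair samples and were therefore not used as pairs. A replicate block left the TXNIP difference at −0.60, with an SE of 0.097 against 0.15 without it, and the count at 0. Deviations from the group means hardly correlated between same-numbered arrays (0.024, 0.015 and 0.033). Every array had its highest such correlation with the same number. Deviations within a group cancel out, so these correlations are tied to each other, and pairing of the numbers was not tested. Of 100 list medians 94 moved by less than the spread of the arrays. The median of the MondoA and ChREBP targets was −0.042 without dim probe sets and, on leaving out single arrays, between −0.057 and 0.0053, that of regulators and partners between −0.043 and 0.023, and that of the glucocorticoid and vitamin D genes between −0.089 and 0.022. Of the 8 genes most like TXNIP 0 remained with Pearson correlation, and 1 to 6 on leaving out single arrays. Of 386 values of 35 named genes 378 kept their sign. With arrays left out HK2 ran from −0.053 to 0.15, ITCH from −0.083 to 0.0070, TKT from −0.041 to 0.0047 and RPIA from −0.14 to 0.10, and MXI1 was 0.012 as the mean of its probe sets. Except where an alternative tests fewer probe sets or arrays by construction, the cause was not tested. For dim probe sets the precision is not known, since signal over background cannot be read from the deposited values.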
